A study of Physcomitrium patens with 5 samples.

Results

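The AP2/ERF and auxin response factor genes are 4 genes of the moss Physcomitrium patens that carry these definitions in the authors' deposited table of differentially methylated regions. They were chosen by their identifiers, Pp1s11_198V6, Pp1s133_11V6, Pp1s120_13V6 and Pp1s86_4V6, out of 225 listed genes, and they held 5 of the 224 listed regions. DNA methylation was measured by bisulfite sequencing of genomic DNA from gametophores, the leafy shoots of the moss, grown on BCD medium. There were 5 libraries, 1 from each state: hydrated plants (HD), plants after moderate (MDH, also called mild) or severe drying (SDH), and dried plants rewetted in part (PRE) or in full (FRE). Each of the other 4 was compared by the authors with the same hydrated library, so the 4 comparisons share their control. With 1 library per state no difference can be set against the spread between replicates, and none was tested. The labels state neither strain nor plant age, and no length of drying or rewetting.

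AP2/ERF proteins are plant transcription factors named for the APETALA2 domain with which they bind DNA. The ethylene-responsive factors among them, also called EREBPs for ethylene-responsive element binding proteins, bind GCC-box elements in promoters, and the related DREB branch binds dehydration-responsive elements and is known from flowering plants for switching on genes of drought and cold responses. Auxin response factors (ARFs) bind auxin response elements in the promoters of auxin-regulated genes. Aux/IAA proteins hold many of them in check until auxin triggers the degradation of these repressors. Cytosine methylation in plants occurs in the CG, CHG and CHH contexts, and methylation of flanking DNA is best known from silenced transposons and from some silenced genes. Transcripts were not measured in the data analysed here, so the values below are levels of methylation and carry no information on how strongly a gene was transcribed.

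The annotation of the 4 genes overlapped beyond the definitions used to choose them. Pp1s133_11V6 and Pp1s120_13V6 are defined as EREBP-like factors under the orthology identifier K09286. Pp1s11_198V6 is defined as ethylene-responsive transcription factor 2 under K14517, and its definition ends in K09286, the identifier of the other two. These 3 were the only genes of the table with K09286. Pp1s86_4V6 is defined as an auxin response factor under K14486, and it was the 1 listed gene with the ontology term hormone-mediated signaling pathway. All 4 genes carried the term transcription, DNA-dependent, which 5 of the other 221 listed genes also had. The term DNA binding was given to the 3 AP2/ERF genes, while the ARF gene had nucleic acid binding and protein binding. All 4 had the term intracellular membrane-bounded organelle, shared with 25 other listed genes. Which AP2/ERF subfamily or which ARF class these genes belong to is not settled by the table.

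Every listed region of the 4 genes was less methylated than in the hydrated library, and each of the 4 comparisons held at least 1 of them. Values are the authors' log2 ratios, read as the level in the other library over that in the hydrated library. The authors did not name the numerator, so this reading, and with it the direction, was inferred from 2 regions, as described below. The listed regions all had a size of at least 1 on that scale. Levels in percent given below were not listed. They were taken back from the ratios as the whole-percent levels that give them. The authors' deposited table gave -1.14 for Pp1s11_198V6 in moderate dehydration and -1.58 for Pp1s133_11V6 in severe dehydration. For Pp1s120_13V6, the authors' deposited table gave -1.58 in partial rehydration and -4.07 in full rehydration. The ARF gene Pp1s86_4V6 stood at -2.21 in full rehydration in the authors' deposited table. Of all listed regions, the share lower than hydrated was 30.0% of 30 in moderate dehydration, 45.5% of 22 in severe dehydration, 87.5% of 40 in partial rehydration and 43.9% of 132 in full rehydration. Over all 224 regions it was 50.0%. The genes were chosen from this list of differing regions and with their direction known, so 5 lower of 5 is a description. A gene with no region in a comparison was not listed there, which does not show that its methylation was the same.

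**Figure D1:**
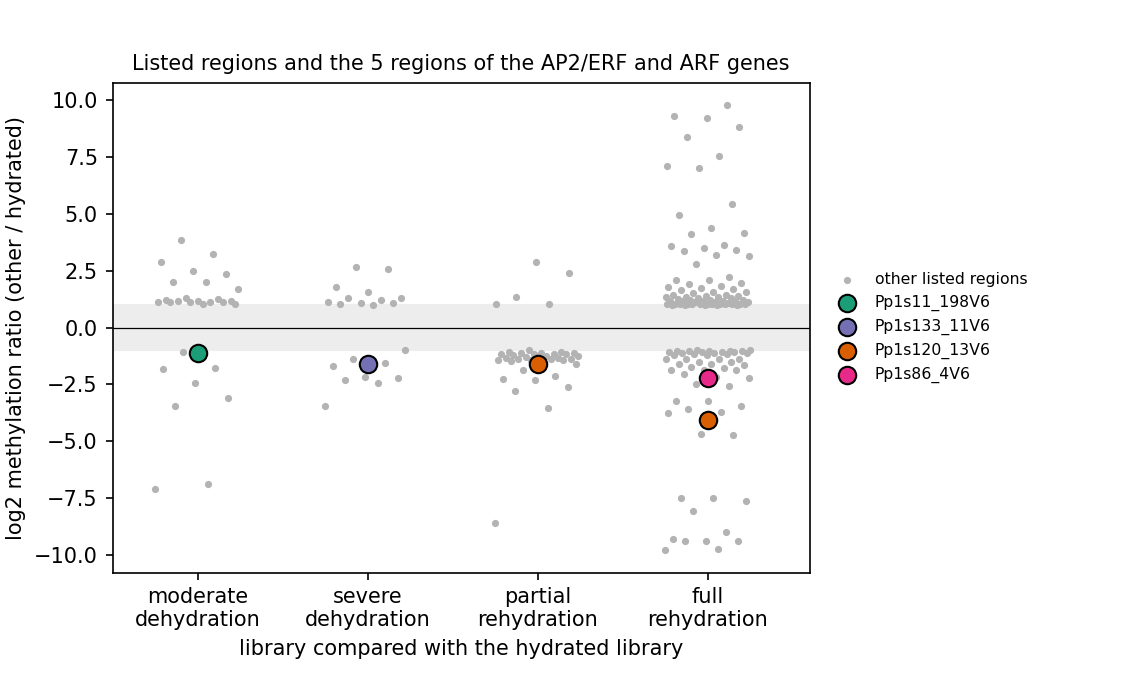
Log2 methylation ratio (other library over hydrated library) of every listed region in the 4 comparisons. Grey points are regions of other genes, coloured points the 5 regions of the AP2/ERF and ARF genes, and the grey band marks sizes under 1, in which no region was listed. All 5 coloured points lie below 0, from -1.14 for Pp1s11_198V6 to -4.07 for Pp1s120_13V6.

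Pp1s120_13V6, an EREBP-like factor gene, was the 1 gene of the 4 that was listed in 2 comparisons, both after rewetting and both in its upstream flank, the 2 kb before the gene. In partial rehydration the region ran from 63468 to 63668 on scaffold 120. In full rehydration the region ran from 63093 to 63668. The shorter region thus lay inside the longer one and ended at the same base. It covered 34.8% of the longer region, and 375 bases were listed in full rehydration alone. The level in the partially rehydrated library was 0.333 of the hydrated level over the shorter region. A single pair of whole-percent levels gives the ratio of the longer region: 67% in the hydrated and 4% in the fully rehydrated library. That is a difference of -63 percentage points and a ratio 16.7-fold lower. Both comparisons share the hydrated library, and the ratios were taken over different stretches, so they are given side by side and not compared. The whole-percent levels that give the ratio of the shorter region number 33 pairs, with hydrated levels from 3% to 99%. A ratio of 0.333 allows only hydrated levels that are multiples of 3, so 67% could not be among them. The 67% belongs to the longer region, so nothing about the level of the shorter one is read from this. The table does not say which pair it was.

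**Figure D2:**
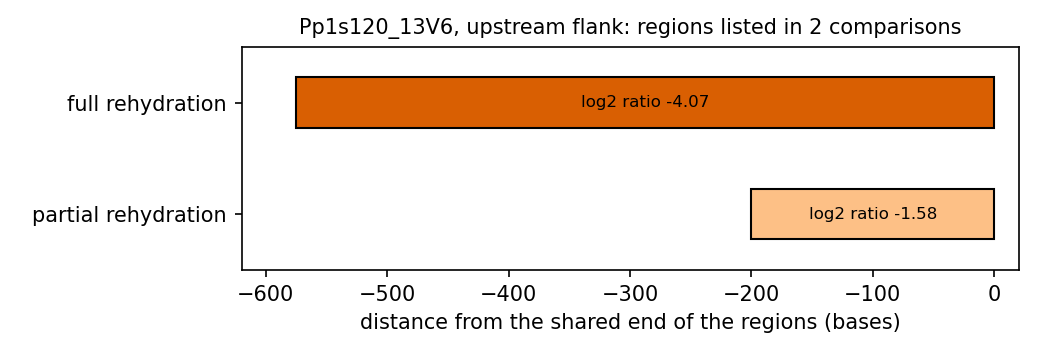
Positions of the regions listed upstream of Pp1s120_13V6, drawn to scale as distance in bases from their shared end, with the log2 ratio of each. The region of partial rehydration (200 bases) lies within that of full rehydration (575 bases).

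The region lengths of this gene lay near opposite ends of their lists. At 200 bases from start to end, the region of partial rehydration was the shortest of the 40 listed there, where the median was 303.5. No region in any of the 4 comparisons was shorter than 200 bases, and whether the authors set a lower limit on length is not stated. At 575 bases, the region of full rehydration was longer than 120 of the 132 listed there, where the median was 354. By size of the log2 ratio, the region of partial rehydration was 12th of 40 and 10th of the 35 lower ones, whose median was -1.38. The region of full rehydration was 27th of 132 and 14th of the 58 lower ones, whose median was -1.81. Of the 13 lower regions with a larger size, 11 had a level of 0 in the fully rehydrated library, which the authors had entered as 0.001. Among the 47 lower regions with no level of 0, 2 were larger. Next above Pp1s120_13V6 in full rehydration was a phosphatase gene (Pp1s304_50V6), higher by 4.11 on the log2 scale in the authors' deposited table. Next below it was the gene for the ubiquitin-conjugating enzyme E2 O (Pp1s460_7V6), at -3.77 in the authors' deposited table. In partial rehydration its neighbours by size were a region at cytosolic dynein heavy chain genes (Pp1s92_56V6 and Pp1s92_57V6), at -1.62, and the gene body of an RPS2-like resistance gene (Pp1s95_7V6), at -1.52, in the authors' deposited table.

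Pp1s86_4V6, the auxin response factor gene, was listed in full rehydration with a region before the gene that spans positions 63345 to 63573 of scaffold 86. The ratio of this region is given by a single pair of whole-percent levels, 83% in the hydrated and 18% in the fully rehydrated library. That is a difference of -65 percentage points and a ratio 4.61-fold lower. The ARF gene thus had the higher level of the pair in both libraries: its level after full rehydration, 18%, was above the 4% of Pp1s120_13V6, while the differences from the hydrated library were -65 and -63 percentage points. On the ratio scale the ARF region was 46th of 132 and 24th of the 58 lower ones. It was a short region, at 228 bases, with 113 of the 132 regions longer. Both regions next to it by size belong to genes with no annotation in the table. It was not listed in the other 3 comparisons.

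The levels of these 2 genes are set beside those of the regions of other genes in full rehydration that were lower, had both levels above 0 and allowed a single pair of levels. There were 18 such regions. For a lower region with both levels above 0, a single pair is possible only where the hydrated level is above 50%, so regions at or below that level could not enter, and the hydrated levels and the size of the differences are in part set by this condition, for the 2 genes too. The 18 had hydrated levels from 52% to 91% and levels after full rehydration from 3% to 43%. Their differences ran from -76 to -31 percentage points with a median of -47.5. The difference was larger than that of the ARF gene in 2 of the 18, and larger than that of Pp1s120_13V6 in 2. A level below the 4% of Pp1s120_13V6 was found in 1. Nothing is read from this about the other lower regions of the list.

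**Figure D3:**
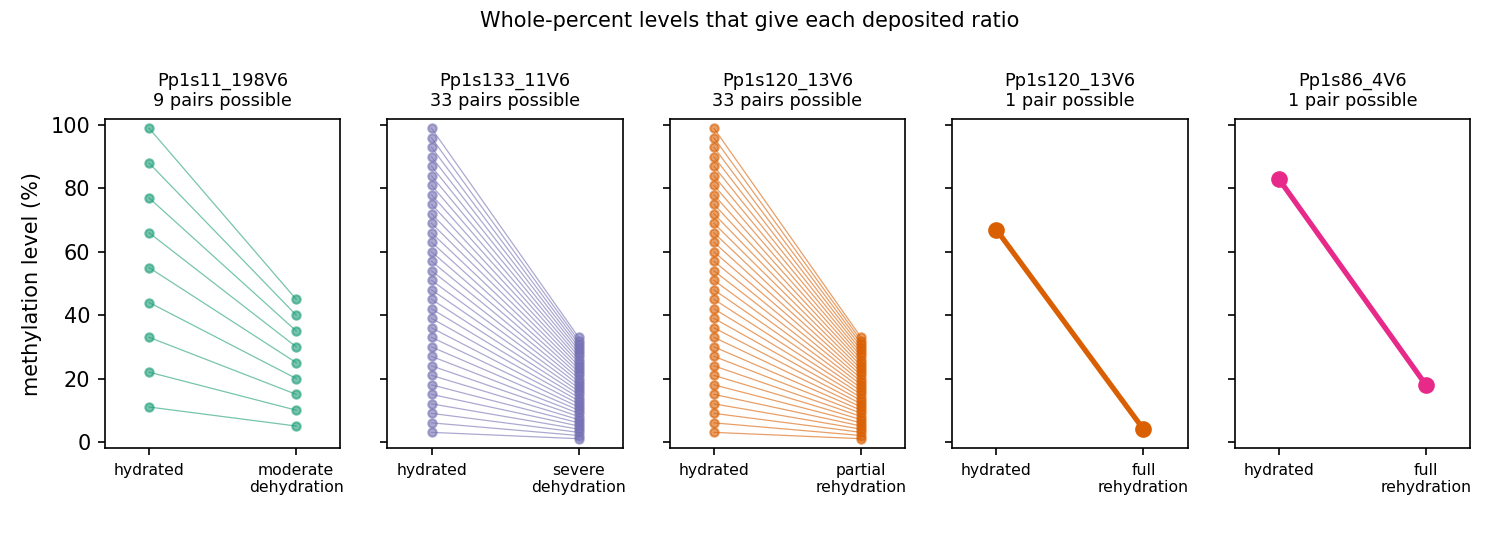
Methylation levels (%) in the hydrated library and in the library compared with it, for each of the 5 regions. Each line joins a pair of whole-percent levels that gives the deposited ratio. A single pair is possible for the regions of full rehydration (67% and 4%, 83% and 18%), 9 pairs for Pp1s11_198V6, and 33 pairs each for Pp1s133_11V6 and the partial rehydration region of Pp1s120_13V6.

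Pp1s133_11V6, the other EREBP-like factor gene, was listed in severe dehydration with a region before the gene that spans positions 112411 to 112718 of scaffold 133. The level in the severely dehydrated library was 0.333 of that in the hydrated library, the same ratio as that of Pp1s120_13V6 in partial rehydration. A ratio of small whole numbers can arise from many levels. Here 33 pairs are possible, from 3% and 1% to 99% and 33%, so the level was lower by anything between 2 and 66 percentage points. By size the region was 10th of 22, tied with a region upstream of a ribosome biogenesis ATPase gene (Pp1s12_28V6), which was higher by 1.58 in the authors' deposited table, and it was 7th of the 10 lower ones, whose median was -1.94. Its length of 307 bases was above the median of 267.5. Next above it was the body of Pp1s54_151V6, annotated with signal transduction, at -1.70 in the authors' deposited table. Next below it was the upstream flank of HERC4 (Pp1s126_183V6), defined as a ubiquitin ligase gene, at -1.56 in the authors' deposited table. The region at HERC4 was also listed as downstream of Pp1s126_181V6.

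Pp1s11_198V6, defined as ethylene-responsive transcription factor 2, was listed in moderate dehydration and was the 1 gene of the 4 with a region in its downstream flank, the 2 kb after the gene. The region lay on scaffold 11 from 1711185 to 1711482. The same region was listed for Pp1s11_200V6, where it is in the upstream flank. Pp1s11_200V6 has no orthology definition and carries the term nucleic acid binding. The table does not tie the region to either gene more than to the other. The level in the moderately dehydrated library was 0.455 of the hydrated level, which 9 pairs of whole percents give, from 11% and 5% to 99% and 45%. The level was thus lower by at least 6 and at most 54 percentage points. The ratio was among the smaller ratios of its list, 22nd of 30 by size together with 1 tied region, and 8th of the 9 lower ones, whose median was -2.46. The tied region, upstream of the unannotated gene Pp1s363_29V6, was higher by 1.14 in the authors' deposited table. Next above stood regions at 1.17 in the authors' deposited table. Among them was that of the F-type ATPase beta gene (Pp1s154_66V6), a region also listed for Pp1s154_64V6 and Pp1s154_65V6. Next below were regions at 1.13, among them that of Pp1s52_156V6, annotated with cation binding, in the authors' deposited table.

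By gene part, 4 of the 5 regions lay upstream, 1 downstream and 0 in a gene body. Of the 4 upstream, 2 were the nested regions of Pp1s120_13V6, and the downstream region was also listed as upstream of Pp1s11_200V6. Over all 267 entries of genes and regions in the table, 43.1% were upstream, 40.4% downstream and 16.5% in the body. Of the 115 upstream entries 55 were lower, and of the 108 downstream entries 58 were. The positions of the gene starts were not used here, so the distance of a region from the gene within the 2 kb is not given.

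The position on the scaffold differed between the comparisons over the whole list, and the regions of these genes are given beside it. In full rehydration the median start of the listed regions was 93376.5, against 447164, 289880 and 227352 in moderate dehydration, severe dehydration and partial rehydration. The full rehydration regions of Pp1s120_13V6 and Pp1s86_4V6 began at 63093 and 63345. In that list 48 and 49 of the 132 regions began nearer to a scaffold start. The partial rehydration region of Pp1s120_13V6 began at 63468, with 8 of 40 nearer. The severe dehydration region of Pp1s133_11V6 began at 112411, with 3 of 22 nearer. The region of Pp1s11_198V6 was the farthest from a scaffold start of the 30 in its list. The part of scaffold position in what was listed was not tested. On the scaffolds of the 4 genes, other than the region shared with Pp1s11_200V6, the table held 1 further region on scaffold 133 (Pp1s133_132V6, partial rehydration, -1.40, 947.2 kb away) and 1 on scaffold 86 (Pp1s86_81V6, moderate dehydration, -2.46, 615.4 kb away), as values of the authors' deposited table. Both belong to unannotated genes and were lower. Scaffold 120 held no listed gene other than Pp1s120_13V6.

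No other gene of hormone signalling or of a named transcription factor family was found by its definition. Of 28 keywords for ethylene, auxin, abscisic acid, the other plant hormones and transcription factor families, 0 matched the definition of a gene outside the 4. Only 127 of the 225 listed genes had any annotation, and some of these had no definition. The 0 therefore does not show that such genes were absent from the list. With ontology terms searched as well, the keywords matched 1 gene, Pp1s181_96V6, annotated with general RNA polymerase II transcription factor activity. This gene was higher by 1.22 upstream in severe dehydration in the authors' deposited table, in a region also listed for Pp1s181_95V6. Of all listed genes, 117 had only lower regions, 103 only higher ones and 5 had regions of either kind.

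The 5 other genes with the term transcription, DNA-dependent were picked out after the values were seen, and all were lower. Pp1s217_9V6, annotated with DNA binding, held 2 regions downstream in full rehydration. The levels that give their ratios were 67% hydrated and 0 after full rehydration for the first, and 85% and 9% for the other. Pp1s259_102V6, also annotated with DNA binding, was at 89% in the hydrated library and 40% in the partially rehydrated one. Its region was also listed for Pp1s259_103V6. Pp1s419_32V6, with the same term, stood at -1.16 in partial rehydration in the authors' deposited table. The remaining 2 are defined as axonemal dynein heavy chains, motor proteins of cilia. In the authors' deposited table, Pp1s214_25V6 was 2-fold lower in partial rehydration, and Pp1s42_115V6 stood at -2.46 in severe dehydration. Of the 5 genes, 3 came from partial rehydration, where 87.5% of all regions were lower. The share was 45.5% in severe dehydration and 43.9% in full rehydration, the comparisons of Pp1s42_115V6 and Pp1s217_9V6. Over all 225 listed genes, 117 had only lower regions and 103 only higher ones. The general term DNA binding was given to 4 genes outside the 4 described here, of which 3 were lower and 1, the excision repair gene RAD23, was higher.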

How the data were processed

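Per the labels' protocols, DNA was sheared, ligated to methylated adaptors, bisulfite-converted and amplified by PCR. The genome build is not given in the sources used here, nor are the aligner, region caller, thresholds and cytosine context. Coverage is not stated either, so depth is unknown and no interval is given for any ratio or level. Per the file headers, each packed entry of the authors' deposited table (other text, no score or count) holds a gene part, start, end, methylation ratio and direction. The ratios are on the log2 scale: signs matched the direction words, and the smallest size was 1. Every ratio equalled that of 2 levels in whole percents (relative tolerance 1e-09), with 0 entered as 0.001, and levels were taken back where a single pair was possible, as for 82 of 224 regions. The table does not name the numerator. For 2 regions listed with identical ends in 2 comparisons, 2 and 6 hydrated levels as denominator could give both ratios and 0 as numerator, so the hydrated library was taken as denominator. Regions were counted once per comparison, and Python 3.11.15 was used.

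Genes were named by rule: the 4 genes, genes sharing their regions, genes matching 28 keywords, and annotated neighbours by size of ratio. The 4 genes, the lists and the rule were chosen with earlier results of these data known. The scaffold mates without annotation, the tied regions and the genes with the term transcription, DNA-dependent were added after the values were seen. None of the 225 identifiers matched the RefSeq gene table (0 of 225), so names are those of the authors' table, and no sequence is shown.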

Additional observations from a re-analysis of the deposited data

How the results depend on the processing

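The direction rests on which library is the denominator: with the hydrated library as numerator, 0 of the 5 regions would be lower. That reading could not give both ratios of the regions listed with identical ends in 2 comparisons. Merging overlapping regions within comparisons left 5 lower, as it had to, since no gene of the 4 had more than 1 region in a comparison. Merging across comparisons left 4 (a choice made after the data were seen). Levels stayed recoverable for 2 of 5 regions with a relative tolerance of 1e-06 and with no level of 0 allowed. Neither change could alter this count, so it is no check. No pair of the 5 regions holds a level of 0, and unequal ratios of whole percents differ by more than that tolerance. The share of listed regions at least as large as each of the 5 stayed within its 95% exact interval in 10 of 10 alternatives. These used every entry or annotated genes only as the reference. Both references recount or narrow the same list, so the shares could move little and this is not independent support. The interval also treats the complete list as if it were a random sample. Searching ontology terms as well as definitions moved the other hormone and transcription factor genes listed as higher from 0 to 1. No replicate could be left out and no paired analysis was possible because each state had 1 library. Unknown coverage limits every ratio, the low levels most.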
